A study of Arabidopsis thaliana and Marchantia polymorpha with 6 samples.

Results

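This account covers 10 genes of the cold and drought response of Arabidopsis thaliana: CBF1, CBF2, CBF3, DREB2A, DREB2B, COR15A, COR15B, COR47, RD29A and KIN1. They were chosen by name, by symbol or synonym in the RefSeq gene table, out of 27444 protein-coding genes on the nuclear chromosomes, and all 10 were found. The table lists CBF3 under its other name DREB1A and RD29A under LTI78. For each gene the data are the positions where the light-signalling proteins AtPIF4 and AtHY5 held its DNA in a test tube.

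The assay was DNA affinity purification sequencing (DAP-seq), in which a purified protein is offered broken genomic DNA and the fragments that stay bound are sequenced. AtPIF4 or AtHY5, made in Escherichia coli and fixed to amylose beads, met DNA of Col-0 (wild-type) seedlings aged 10 days, cut to about 200 bp. No treatment is given in the labels, and no cold or drought was applied as far as they say. The series has 6 samples, and the AtPIF4 and AtHY5 libraries were used here, with 1 library for each protein and therefore no replicate error on any value. The binding protein was recombinant and the DNA carried no chromatin, so what a plant cell would hold at these genes was not measured.

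The CBF proteins, also called DREB1, and the DREB2 proteins are AP2/ERF transcription factors that bind the dehydration-responsive or C-repeat element in the promoters of stress genes. CBF1, CBF2 and CBF3 are induced within a short time of chilling, while DREB2A and DREB2B are known for drought, salt and, for DREB2A, heat. COR15A, COR15B, COR47, RD29A and KIN1 are among the genes that these factors switch on, and they encode hydrophilic proteins that protect membranes and other cell parts during freezing and drying. PIF4 is a bHLH protein that binds G-boxes and related E-boxes and promotes growth in warmth and shade. HY5 is a bZIP protein that binds sequences with an ACGT core and promotes light-dependent development, and it is also known to act in cold acclimation.

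An event is a single position that the authors' caller assigned to a bound protein, deposited as an interval of 200 bp around its centre with a score. A gene was said to have an event when the centre lay inside the gene or within 2000 bp of either end, and this span is called the gene's window. Events of the different proteins were called coincident when their centres lay within 100 bp. The score is the authors' own value, and it is given with its rank in its own list, rank 1 being the highest. There were 6699 AtPIF4 events (median score 146) and 16825 AtHY5 events (median score 117). Read depth was not given, and the list lengths say nothing of how strongly a protein binds.

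AtHY5 events lay in the windows of all 10 genes and AtPIF4 events in those of 4, namely DREB2A, COR15A, COR15B and KIN1. Among all protein-coding genes, 59.9% had an AtHY5 event and 31.5% an AtPIF4 event. The AtPIF4 count of 4 in 10, or 40.0%, stands near that background. Gene length hardly moved these shares. Among genes of 986 to 2928 bp, the range of the 10, the shares were 60.7% for AtHY5 and 31.7% for AtPIF4. The 10 genes are not independent, because windows of neighbours overlap, and they make up 7 separate loci. AtHY5 had events at all 7 loci and AtPIF4 at 3. The shares above are per gene and are no background for loci, some of which merge several genes into a longer span. No share was computed for loci. No test was made of these counts, since there is 1 library for each protein.

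Counted once each, 18 AtHY5 events and 5 AtPIF4 events served the 10 genes. Of these, 3 AtHY5 events and 1 AtPIF4 event fell in the windows of more than 1 of the 10. Of the 18 AtHY5 events, 10 lay inside one of the 10 genes, 4 inside another gene and 4 between genes. Of the 5 AtPIF4 events, 2 lay inside COR15B or KIN1, 2 inside another gene and 1 between genes. In the whole lists, which also hold events far from any gene, 65.3% of AtHY5 and 63.1% of AtPIF4 events lay inside protein-coding genes. An AtHY5 event lay inside 8 of the 10 genes, all but CBF2 and DREB2B, against 30.3% of all genes, and an AtPIF4 event inside 2, against 13.7%. The gene table gives no strand or exons, so a promoter, an intron and an untranslated region could not be told apart. Event sequences and motifs were not analysed here.

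**Figure D1:**
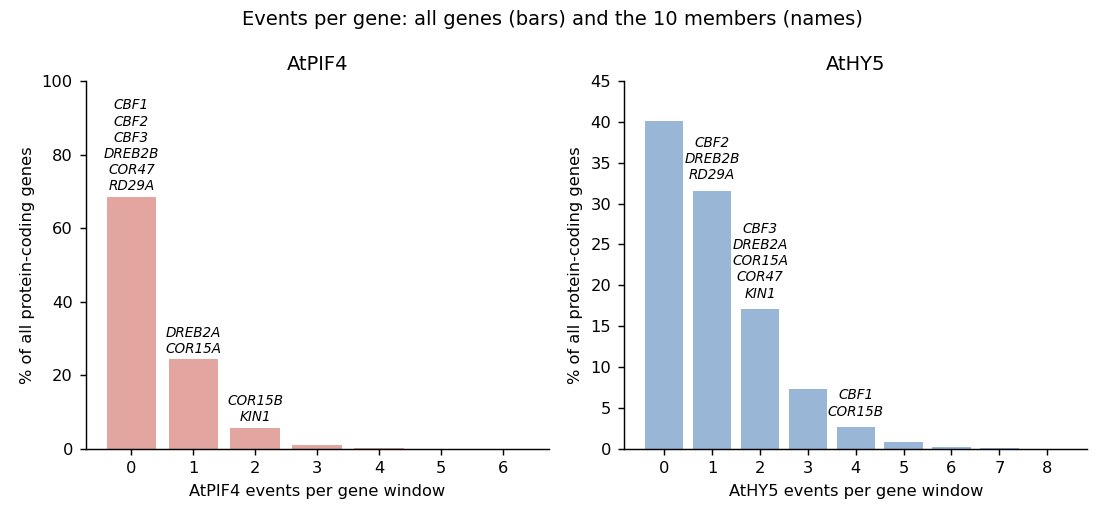
Number of AtPIF4 events (left) and AtHY5 events (right) per gene window, with the percentage of all protein-coding genes as bars and the 10 cold and drought genes as names above the bar of their count. For AtPIF4, 6 of the 10 stand at no event, and for AtHY5 none does, with CBF1 and COR15B at 4 events.

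All 5 AtPIF4 events at these genes were coincident with an AtHY5 event. Over the windows of all protein-coding genes, 48.0% of AtPIF4 events were coincident. The 4 genes with an AtPIF4 event, at 3 loci, therefore all had events of both proteins and a coincident pair. That is 4 of the 10 genes, where 25.2% of all genes had both and 16.7% had such a pair. All 10 had an AtHY5 event, so the count with both only repeats the AtPIF4 count. Among all protein-coding genes, 8656 had an AtPIF4 event, 6910 had events of both proteins and 4588 had a coincident pair. From the AtHY5 side, 6 of 18 events were coincident, where 19.7% of the AtHY5 events in gene windows were. The 5 AtPIF4 events formed 6 pairs, because 2 AtHY5 events lay near 1 AtPIF4 event at COR15B. In 4 of the 6 pairs the centres were 1 or 2 bp apart, which was so for 38.2% of the 3355 pairs of the whole genome. That share leaves out any pairs with the same centre. The other gaps were 20 bp at DREB2A and 61 bp at COR15B.

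The CBF genes, the early regulators, lie next to each other on chromosome 4 in the order CBF2, CBF3, CBF1, with 1774 bp and 2379 bp between them. In the 11.7 kb that hold them and their flanks lay 6 AtHY5 events and 0 AtPIF4 events. The AtPIF4 list had nothing close to this cluster. Its nearest event lay 13636 bp beyond an end of CBF1, 17232 bp from CBF3 and 20397 bp from CBF2. Of all protein-coding genes, 20.6%, 14.8% and 11.1% were as far from an AtPIF4 event or farther.

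CBF1 had 4 AtHY5 events, a number that 3.92% of all genes reached or passed. Inside the gene lay 3 of them, and 1.79% of all genes had 3 or more inside. They scored 72.5 at 13021950 to 13022149, 91.7 at 13022115 to 13022314 and 101 at 13022786 to 13022985, all below the median of the list. The intervals of the events of 72.5 and 91.7 overlap, with centres 165 bp apart, so they may not be separate sites. The fourth, 479 bp beyond an end of CBF1, scored 137 (rank 6722) at 13021202 to 13021401. It faces CBF3 across the gap and lies 1901 bp from an end of that gene, so it counts for both. CBF1 thus had 3 events below the list median and 1 above it.

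CBF3 had the highest-scoring event of the cluster, inside the gene and 484 bp from an end. Its score was 288 (rank 2240 of 16825), at 13018395 to 13018594. CBF2 had 1 event, of score 216 (rank 3519), at 13013964 to 13014163 and 1187 bp beyond an end. That centre lies 22 bp inside the neighbouring gene ABCB28, which the table names as such. Nothing lay inside CBF2. Measured from the end with the lower coordinate, the CBF3 event lay 484 bp inside, and the events inside CBF1 lay 269, 434 and 1105 bp inside. Of the events inside CBF1, that at 434 bp, of score 91.7, was the closest to the CBF3 value, a match picked after the positions were seen. The genes differ in length, 1217 bp for CBF1 and 1391 bp for CBF3, and their strand is not given. A shared position is therefore not shown.

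DREB2A, the drought and heat regulator, had the highest AtHY5 score of the 10 genes. The event lay 799 bp beyond an end, on chromosome 5 at 1601307 to 1601506, with a score of 876 and rank 324, so that 98.1% of the list scored lower. An AtPIF4 event of score 181 (rank 2222 of 6699) lay 20 bp away, at 1601287 to 1601486. Both centres stood between genes, but closer to the neighbour AT5G05400, at 151 bp for AtHY5 and 131 bp for AtPIF4, than to DREB2A. This was the only AtPIF4 event of the 5 that lay outside every protein-coding gene. A second AtHY5 event, of score 116 (rank 8461), lay inside DREB2A, 667 bp from an end.

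DREB2B, its relative on chromosome 3, had a single event. It was an AtHY5 event of score 110 (rank 9144) at 3455125 to 3455324, 131 bp beyond an end and between genes. The nearest AtPIF4 event lay 6166 bp away. The DREB2 relatives thus differed in these lists. The window of DREB2A held a coincident pair, nearer to AT5G05400, with AtHY5 at rank 324 and AtPIF4 at rank 2222. That of DREB2B held a lone AtHY5 event below the list median.

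**Figure D2:**
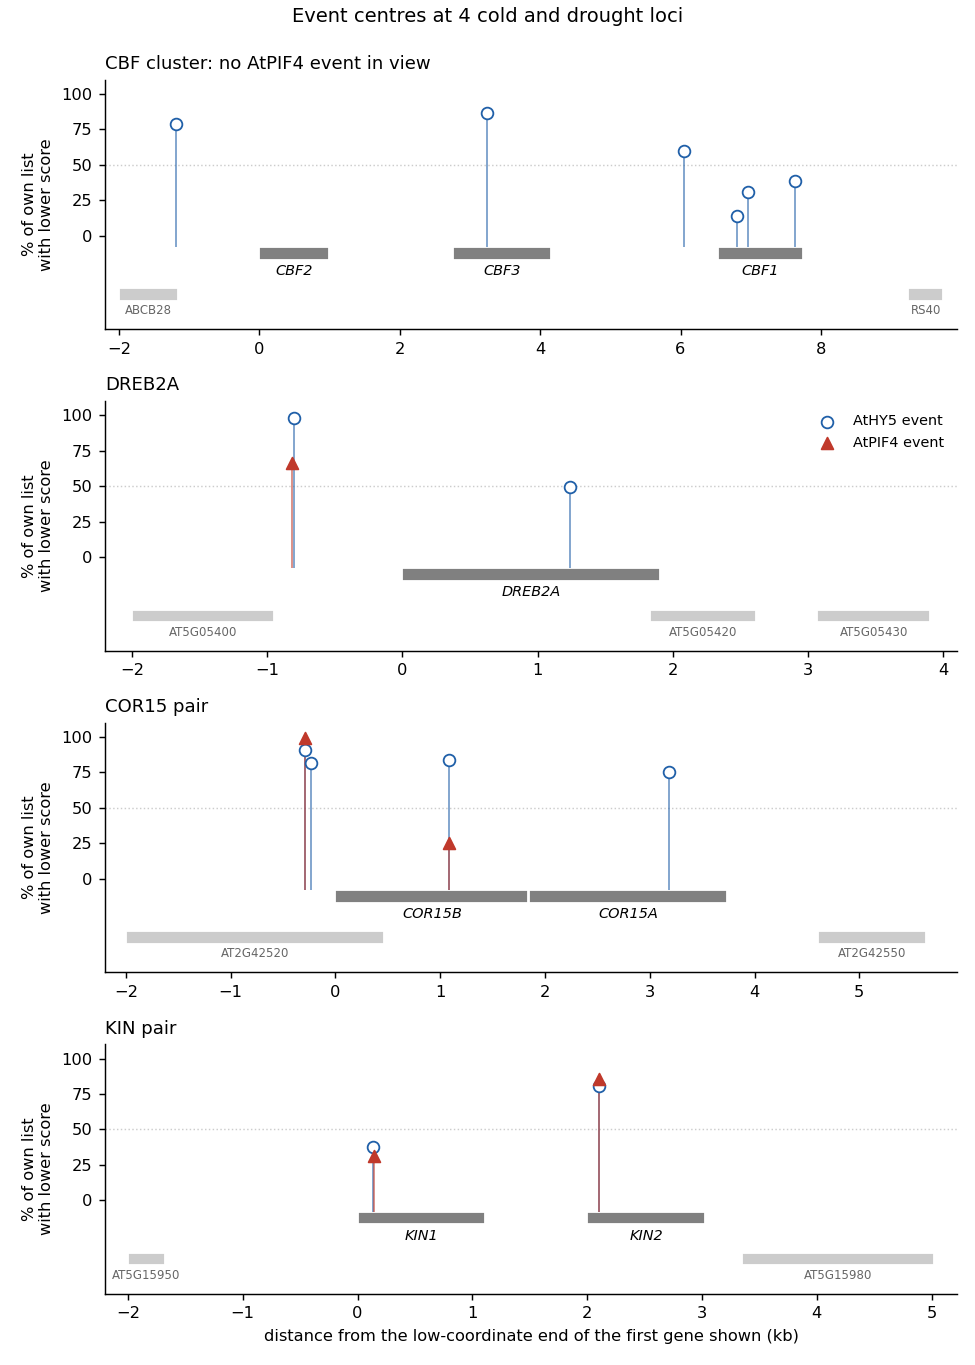
Event centres at the CBF cluster, DREB2A, the COR15 pair and the KIN pair, by distance in kb from the low-coordinate end of the first gene shown (x axis) and by the percentage of the event's own list with a lower score (y axis). Dark bars are the named genes, light bars other protein-coding genes cut at the edge of the 2000 bp flank, and the dotted line marks 50 percent. At DREB2A and at the COR15 and KIN pairs each AtPIF4 triangle stands beside an AtHY5 circle, and the CBF cluster shows circles only.

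COR15A and COR15B encode closely related chloroplast proteins that stabilise membranes during freezing. The genes are neighbours on chromosome 2 with 7 bp between them, and the window of COR15B held the highest AtPIF4 score of the 10 genes. This AtPIF4 event had a score of 1430 and rank 45 of 6699, at 17708202 to 17708401, so that 99.3% of the list scored lower. It lay 292 bp beyond an end of COR15B. An AtHY5 event of score 366.9 (rank 1514) at 17708201 to 17708400 had its centre 1 bp away. A further AtHY5 event, of score 232.1 (rank 3118) at 17708263 to 17708462, lay 61 bp from the same AtPIF4 event. All 3 centres fall inside AT2G42520, a gene that overlaps COR15B by 468 bp in the table, and they lie 698 to 760 bp from its end. The highest-scoring position at the COR15 genes was therefore inside a neighbour by annotation.

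A further coincident pair lay inside COR15B. There the AtPIF4 event scored 115.6 (rank 5006) at 17709578 to 17709777, below the median of its list, and the AtHY5 event scored 253 (rank 2758) at 17709577 to 17709776. The centres were 1 bp apart, and the same pair lay 764 and 765 bp beyond an end of COR15A. An AtHY5 event of score 191 (rank 4159), at 17711673 to 17711872, lay inside COR15A, 558 bp from an end, with no AtPIF4 event within 2000 bp of it. COR15B thus had 4 AtHY5 and 2 AtPIF4 events, and COR15A 2 and 1.

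COR15A shows how the 2000 bp limit acts. The AtPIF4 event of score 1430 lay 2140 bp from its end, and the AtHY5 events of scores 232.1 and 366.9 lay at 2079 and 2141 bp, just outside. Just inside the limit lay the AtHY5 event of score 137 at 1901 bp from CBF3, and the next event outside it for a CBF gene was that of score 288 at 2259 bp from CBF2.

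KIN1, which encodes a small cold-induced hydrophilic protein, lies on chromosome 5 with 892 bp between it and its close relative KIN2. Its window held 2 coincident pairs, a number that 3.06% of all genes reached or passed, COR15B with 3 pairs among them. The first pair lay inside KIN1, with an AtPIF4 score of 121.8 (rank 4618) at 5209758 to 5209957 and an AtHY5 score of 99.6 (rank 10454) at 5209756 to 5209955. The other pair lay inside KIN2, 998 and 997 bp beyond KIN1, with an AtPIF4 score of 276 (rank 939) at 5211725 to 5211924 and an AtHY5 score of 229 (rank 3182) at 5211724 to 5211923. Both proteins had the higher score at KIN2.

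The pairs stood at like positions in the KIN genes. Measured from the end with the lower coordinate, the AtPIF4 centres lay 140 bp inside KIN1 and 105 bp inside KIN2, and the AtHY5 centres 138 and 104 bp. The centres of the pairs were 1967 bp apart for AtPIF4 and 1968 bp for AtHY5, against 2002 bp between the lower ends of the genes. KIN1 and KIN2 are close copies of each other, and the sources used here do not say how reads matching both were placed.

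COR47 and RD29A, which encode a dehydrin and a hydrophilic stress protein, had AtHY5 events only. COR47, on chromosome 1, had 1 event of score 106 (rank 9583) at 7082882 to 7083081 and 1 of score 64.4 (rank 15881) at 7086589 to 7086788. The first lay 1428 bp beyond an end, and only 31 bp from the neighbour AT1G20430. The other lay inside COR47, 185 bp from an end, and had the lowest score of the 18. The nearest AtPIF4 event lay 13049 bp away, a distance that 21.8% of all genes reached or passed.

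RD29A, on chromosome 5, had 1 AtHY5 event of score 139.6 (rank 6560) at 21241414 to 21241613, inside the gene and 796 bp from an end. The nearest AtPIF4 event lay 6646 bp away. Its neighbour RD29B, a gene known for its response to abscisic acid, had an AtHY5 event of score 441.4 (rank 1115) 60 bp beyond an end, which lies 3756 bp from RD29A and outside its window. The score of that event was higher than those in the windows of all the 10 genes except DREB2A.

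**Figure D3:**
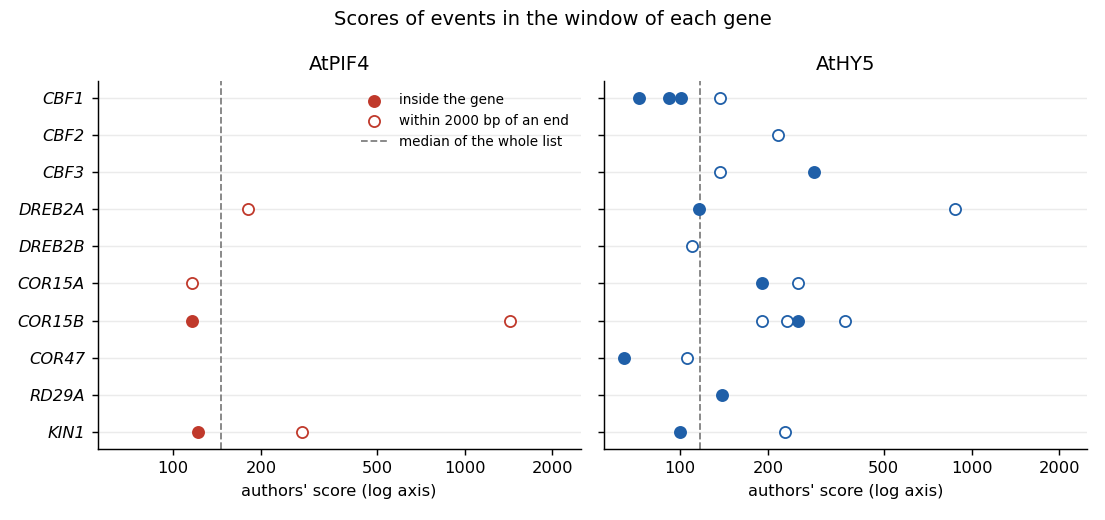
Authors' scores on a log axis for every AtPIF4 event (left) and AtHY5 event (right) in the window of each gene, with filled circles inside the gene, open circles within 2000 bp of an end, and a dashed line at the median of the whole list. The AtPIF4 event of 1430 at COR15B and the AtHY5 event of 876 at DREB2A stand apart from the rest, and the events of COR47 and DREB2B lie below the AtHY5 median.

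By the highest AtHY5 score in the window, the order was DREB2A with 876.1, COR15B with 366.9, CBF3 with 288, COR15A with 253, KIN1 with 229, CBF2 with 216, RD29A with 139.6, CBF1 with 137, DREB2B with 110 and COR47 with 106. These are scores in the window, and several of the events lie closer to or inside another gene. That of 876.1 is nearer AT5G05400 than DREB2A. Those of 366.9, 229 and 216 lie inside AT2G42520, KIN2 and ABCB28, and that of 253 inside COR15B. The AtHY5 event inside KIN1 itself scored 99.6. With 1 library there is no spread to say which neighbours in this order differ. The median of these values was 222.5, against 142 over all genes that had an AtHY5 event. For AtPIF4 the 4 genes had highest scores of 1430 at COR15B, 276 at KIN1, 181 at DREB2A and 115.6 at COR15A, with a median of 228.5 against 155 over all genes with an AtPIF4 event. Of these events, that of 1430 lies inside AT2G42520, that of 276 inside KIN2 and that of 115.6 inside COR15B. The event of 181 is nearer AT5G05400 than DREB2A. Of the member events, 10 of 18 for AtHY5 and 3 of 5 for AtPIF4 scored above the median of their list. The number of AtHY5 events per gene had a median of 2, against 1 over all genes.

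Genes around the 10 in the same pathway were taken from 3 lists, with 43 genes matched by name. Of 4 other DREB genes, CBF4, DDF1, DDF2 and DREB2C, 3 had an AtHY5 event and 3 an AtPIF4 event, and 0 had a coincident pair. This list had 9 genes, and DREB2D, DREB2E, DREB2F, DREB2G and DREB2H were left out because their names did not match. The counts therefore leave out most of the DREB2 relatives in the list. The shares of all genes were 59.9% with an AtHY5 event, 31.5% with an AtPIF4 event and 16.7% with a pair. DDF2, a relative of the CBF genes, led for both proteins, with an AtHY5 score of 644.5 and an AtPIF4 score of 283, both inside the gene and 298 bp apart. A lower AtHY5 event of score 294.5 stood 125 bp from that AtPIF4 event, beyond the 100 bp limit. Next for AtHY5 came DDF1 with 333 and CBF4, known for its drought response, with 155, and next for AtPIF4 came DREB2C with 137 and DDF1 with 136. Like CBF1, CBF2 and CBF3, CBF4 had AtHY5 events and no AtPIF4 event in its window.

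Of 18 upstream regulators, 10 had an AtHY5 event, or 55.6%, and 7 an AtPIF4 event, or 38.9%, both near the shares of all genes. A coincident pair was present at 5 of the 18, where 16.7% of all genes had one. ICE1, the bHLH activator of CBF3, had neither, nor did CAMTA1 and CAMTA3, calmodulin-binding activators of CBF genes, nor MYB15 and EIN3, which are repressors of them, nor RCF1, an RNA helicase gene. The highest AtHY5 scores were 533 at STZ and 426.5 at ZAT12, zinc finger genes induced by cold and other stresses. Next came 133 at DRIP1, which encodes a ubiquitin ligase that marks DREB2A protein for breakdown. The event of 533 lay 1520 bp beyond an end of STZ, and the AtHY5 event inside STZ scored 152. That of 426.5 lay inside ZAT12, and that of 133 lay 481 bp beyond DRIP1. The highest AtPIF4 scores were 217 at DRIP1, 172 at SFR6, a Mediator subunit gene needed for CBF-driven transcription, and 147 at CAMTA2. At DRIP1 the AtPIF4 event lay 1000 bp beyond an end, 2 bp from an AtHY5 event of score 81.

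Of 21 other response genes, 18 had an AtHY5 event, or 85.7%, and 11 an AtPIF4 event, or 52.4%, and 10 had a coincident pair. Over all genes these shares were 59.9%, 31.5% and 16.7%. GOLS1, GOLS2 and GOLS3 encode galactinol synthases, which make precursors of the raffinose sugars that build up in cold and drought. GOLS2 had an AtHY5 score of 726.9 (rank 459) and GOLS1 one of 695.3 (rank 498), and RD20, a caleosin gene, followed with 541.6 (rank 774). For AtPIF4, GOLS1 had a score of 682.2 (rank 192), COR413IM2 one of 360 (rank 595) and GOLS3 one of 323 (rank 722). These events lay inside GOLS1, 1419 bp beyond COR413IM2 and 96 bp beyond GOLS3. At GOLS2 and GOLS3 the AtPIF4 centre lay 2 bp from an AtHY5 centre, as close as at KIN1. COR27 and ADH1 had no event of either protein. This list holds KIN2, RD29B and ERD10, which share events with KIN1, RD29A and COR47, so its count is not independent of that of the 10 genes. Within the list, all 3 AtHY5 events of COR413IM1 also count for its neighbour COR413IM2. The list was chosen with earlier results of these data known. ERD10, a dehydrin gene beside COR47, shares the event of score 64.4, and had 3 AtHY5 events and no AtPIF4 event.

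**Figure D4:**
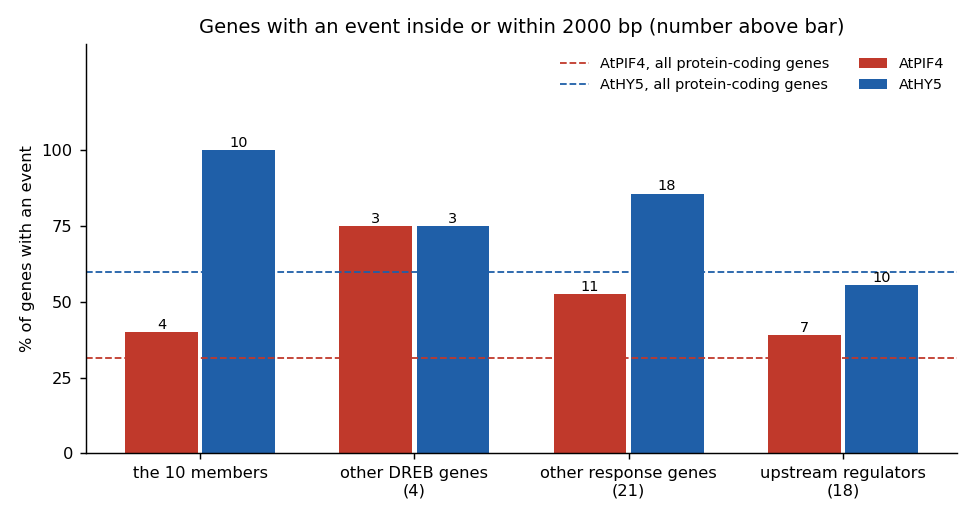
Percentage of genes with an AtPIF4 event (red) or an AtHY5 event (blue) inside or within 2000 bp, for the 10 cold and drought genes and 3 lists of related genes, with the number of genes above each bar and the size of each list in brackets. Dashed lines mark the shares of all protein-coding genes, 31.5% and 59.9%, and the upstream regulators stand nearest to them.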

How the data were processed

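Genomic DNA bound by AtPIF4 and by AtHY5 was sequenced, with 1 library each. The submitters' processing notes name Trim Galore, Bowtie2 and the build TAIR10, without versions. Per the file headers, GEM placed the events. The score of each event was deposited by the authors, and its scale and normalization are not given in the sources used here. It was used only within its own list. Depth is unknown.

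Positions are 1-based. Genes came from the RefSeq table of assembly TAIR10.1, so only distances computed with it are printed. Without a shift 63.1% of AtPIF4 and 65.3% of AtHY5 events lay inside genes, against 55.3% to 57.9% after shifts of 1000 or 2000 bp. Computation used Python 3.11.15, numpy 2.4.6 and pandas 2.3.3. The counting was tested on simulated data with a single event of each protein per gene, always beyond the high-coordinate end. Events inside genes, events on the low-coordinate side and several events per window were not covered by it. No test between conditions was possible. Counts were set beside the shares of all protein-coding genes.

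The genes and lists were chosen with earlier results of these data known. Of 49 list genes, 43 matched the table by symbol or synonym, and the other 6 were left out. For each list and protein, the 3 genes with the highest-scoring event were named, plus genes that share an event with the 10. Other genes were named after their values were seen. Motifs in promoters had been planned and were not run, since no sequence was used. Alternatives were windows of 500, 1000 and 5000 bp, flanks only, higher scores, interval overlap and other coincidence distances.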

Additional observations from a re-analysis of the deposited data

How the results depend on the processing

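The counts rest on 1 library per protein of unknown depth, and an event missing from a list does not show that the protein cannot bind there. How reads shared by close relatives (the CBF, COR15 and KIN genes) were placed is not stated. The most sensitive choice was the window. Within 500 bp, 2 genes (COR15B and KIN1) had an AtPIF4 event, events of both proteins and a coincident pair, with 3 distinct AtPIF4 events. Of all genes, 18.7% had an AtPIF4 event and 9.46% a coincident pair in that window. The AtHY5 count was 9 of 10 within 500 or 1000 bp, without CBF2 (39.8% and 47.7% of all genes), 9 beyond the gene ends only, without RD29A (44.4%), and 8 among events above the list median, without DREB2B and COR47 (37.2%). Distinct AtHY5 events numbered 10 beyond the gene ends, 10 above the median score and 28 within 5000 bp, and distinct AtPIF4 events 3 above the median score. Of the upstream regulators, 4 had an AtPIF4 event within 500 bp and 11 within 5000 bp, where 18.7% and 50.6% of all genes had one, windows added for these lists after seeing the data. The other 47 values moved by 1.5 times or less. The 4 genes with a coincident pair were the same for distances of 50 and 200 bp and for overlapping intervals. Of all genes, 13.8%, 18.3% and 18.2% had a pair under these settings. No paired analysis was possible because each protein has 1 library and no test was made.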

Other observations

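Events between 2000 and 5000 bp from the 10 genes added values that the window left out. Beyond DREB2A, a further coincident pair stood 4465 bp away for AtPIF4, with a score of 193, and 4504 bp away for AtHY5, with a score of 116, the centres 39 bp apart. Another AtPIF4 event there, at 3254 bp, scored 82. Beyond COR15A an AtHY5 event of score 412.9 (rank 1231) lay at 4778 bp, higher than those in the windows of both COR15 genes. Beyond COR47, on the far side of ERD10, AtHY5 events of scores 87 and 150 lay at 3335 and 3764 bp.

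RAB18 and XERO2, dehydrin genes of the response list named here after their values were seen, had AtHY5 events and no AtPIF4 event. RAB18 had 3, of scores 513.8, 430.3 and 206.9, the highest 108 bp beyond an end. XERO2 had 4, of scores 341, 337, 169.2 and 151. LEA14, a gene for a late embryogenesis abundant protein, had the opposite pattern, with AtPIF4 events of scores 235 and 94 and no AtHY5 event.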
